A study of Homo sapiens with 12 samples.

Results

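The 42 genes examined here act in the G2 phase and in mitosis, and they were taken by gene symbol from the 60617 gene identifiers that each library was counted over. They encode CDK1 with its cyclins and cofactors, the transcription factor FOXM1, the mitotic kinases with the chromosomal passenger complex, and proteins of the spindle checkpoint, kinetochore, spindle, cytokinesis, mitotic exit and chromosomes. They were measured by RNA-seq in 12Z cells, an immortalized epithelial line that was derived from endometriosis. All cells had received non-targeting siRNA, followed by transient transfection with pBabe, which was either empty (control cells) or carried PIK3CA H1047R, an activating kinase-domain mutant of the catalytic PI3K subunit p110α (H1047R cells). After 4 h without serum, cells received 100 nM insulin or vehicle in serum-free medium for 24 h. Control cells thus formed the groups control vehicle and control insulin, and H1047R cells the groups H1047R vehicle and H1047R insulin, each with 3 libraries from independent experiments. The mutant was carried on a plasmid in 1 cell line that keeps its own PIK3CA, so the groups model acute overexpression and not a mutated endogenous gene.

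Dividing cells copy their DNA in S phase, pause in G2, and then separate the copies in mitosis. Entry into mitosis is driven by CDK1 bound to cyclin A or cyclin B, and exit by the anaphase-promoting complex, which marks those cyclins for destruction. Most genes used at this time are transcribed in late S phase and G2: in resting cells the DREAM complex holds them down, and in cycling cells MuvB with B-MYB and then FOXM1 switches them on. The abundance of these mRNAs in a culture therefore follows the share of cells in G2 and mitosis, and in RNA from whole cultures fewer such cells and less RNA per cell cannot be told apart.

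Each library of H1047R insulin held 30071951 to 37918025 gene counts and each of the other 9 held 21483124 to 29255708. In H1047R insulin the share of reads placed at several sites was lower (8.48 to 9.51%, against 13.6 to 15.4%). PIK3CA, the transfected gene, averaged 88.6 ± 0.384 CPM (counts scaled to library size, ± SD) without and 82.6 ± 2.86 CPM with insulin in control cells, 235 ± 68.2 CPM in H1047R vehicle and 721 ± 11.5 CPM in H1047R insulin. The 2 groups of H1047R cells thus differed in the level of the transfected gene as well as in insulin (1.62 ± 0.0839 on the log2 scale, ± SE), and the part of either difference in the results for H1047R insulin was not tested. Among epithelial markers KRT8, KRT18 and KRT19 were abundant (KRT8 at 1439 ± 33.4 CPM in control vehicle), whereas EPCAM (0.649 ± 0.0395 CPM) and CDH1 (2.22 ± 0.112 CPM) were near 0. Mesenchymal VIM and COL1A1 were high in the same cultures. The summed level of the 9 stromal markers was 5768 to 5982 CPM in H1047R insulin and 7562 to 8006 CPM in the other 9 libraries, whereas the 10 epithelial markers summed to 3288 to 3307 CPM and 2924 to 3264 CPM. The 6 leukocyte markers summed to at most 6.56 CPM, with CD3E at 0 in every library, and the 5 endothelial markers summed to at most 9.67 CPM.

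All 42 genes were found and passed the filter on low counts, which tested 22756 genes. Of these, 40 averaged 52.1 to 1245 CPM, with a median SD within groups of 2.08 to 3.61% of the mean. The other 2, NUSAP1 and PRC1, averaged under 10 CPM: in GENCODE v44, 86.8% of NUSAP1 exon bases and 57.6% of PRC1 exon bases are shared with exons of other genes on the same strand, and STAR assigns reads over shared bases to no gene where its annotation holds both. The values of these 2 genes are therefore uncertain. BUB1B (10.2%) and CENPA (7.08%) share smaller parts in the same way. A gene was called where edgeR, fitted across all genes, gave a false discovery rate (FDR) under 0.001.

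Insulin lowered 25 of the 42 genes in H1047R cells and raised 1, BUB1, while in control cells it changed 0 of them. In H1047R cells 9.8% of all genes tested were called lower and 9.85% higher. Among genes averaging at least 100 CPM, for which the test is more sensitive, 28% were called lower, and among the 35 of the 42 genes at that level 20 were. The median log2 fold change of the 40 well-counted genes was -0.21, against -0.000607 over all genes tested. At a mean of at least 100 CPM the median was -0.175 for the 35 genes, against -0.0403 for all 2508 genes at that level. The individual changes of the 40 genes ran from -0.39 to 0.20. The 25 decreases were thus modest, from 10.3 to 23.8%, with standard errors of 0.0338 to 0.0570 on the log2 scale. In control cells 1.63% of all genes tested were called in either direction. There the 40 genes ranged from -0.09 to 0.09, with a median of -0.0069, and DESeq2 also called 0. At an unadjusted p under 0.05 edgeR gave 6 genes (4 higher and 2 lower). The share of all genes tested at that p was not counted. The summed level of the 42 genes was 11687.6, 11862 and 11619.5 CPM in the control vehicle libraries and 11633, 11673 and 11611 CPM in control insulin. It was 11184, 11547 and 11451 CPM in H1047R vehicle and 10034, 9984 and 9925 CPM in H1047R insulin. All H1047R insulin libraries were below all other libraries in this sum. As a share of the scaled library size behind CPM, it was 0.993 to 1.003% there, against 1.118 to 1.186% elsewhere.

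**Figure D1:**
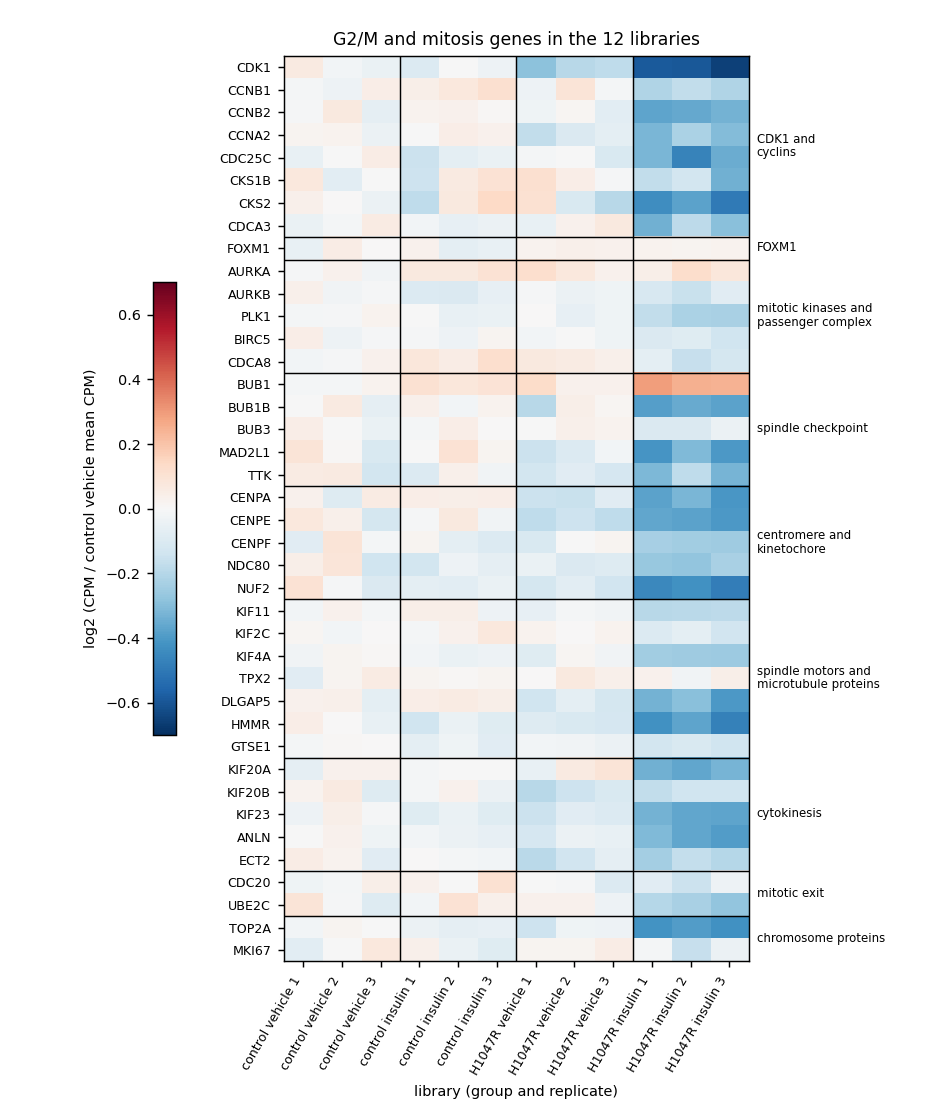
Level of each of the 40 well-counted genes (rows, grouped by role) in each library (columns), as log2 of its CPM over the mean CPM of control vehicle; blue is lower and red is higher. The 3 H1047R insulin libraries are blue for most genes, FOXM1, AURKA and TPX2 stay near white, and BUB1 is red.

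Many G2/M genes are known for a pair of promoter elements, the cell cycle genes homology region (CHR), which binds MuvB, and the CCAAT box, which binds NF-Y. Promoter windows of 300 bases, from 250 before to 50 after the start site, were taken from RefSeq (GRCh38.p14) for the 35 of 42 genes that had one, and the letters TTTGAA or TTCGAA (CHR) and CCAAT were searched on both strands. Of these genes, 29 (82.9%) held a CHR, 29 (82.9%) a CCAAT box and 25 (71.4%) both. Of all 27305 genes with a window, 19.5% held a CHR, 39.7% a CCAAT box and 7.85% both. Other forms of the CHR were not searched for, so all CHR counts here cover these 2 strings only (TTTGAA and TTCGAA). Stretches from 100 bases before to 20 bases after the start site are given for genes that were called lower in H1047R insulin (CDK1, CCNB2, HMMR and CCNB1), that were not called (MKI67 and CDC20) or that were called higher (BUB1). They are written on the gene's strand with each CHR and CCAAT box, in either orientation, in capitals (neighbouring or overlapping motifs run together).
CDK1 (chr10:60778378-60778497, plus strand): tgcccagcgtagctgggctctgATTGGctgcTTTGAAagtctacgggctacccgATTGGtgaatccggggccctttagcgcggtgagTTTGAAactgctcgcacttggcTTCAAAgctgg
CCNB2 (chr15:59105046-59105165, plus strand): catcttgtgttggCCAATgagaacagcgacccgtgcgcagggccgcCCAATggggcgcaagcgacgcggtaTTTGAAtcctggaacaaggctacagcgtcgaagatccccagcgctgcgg
HMMR (chr5:163460532-163460651, plus strand): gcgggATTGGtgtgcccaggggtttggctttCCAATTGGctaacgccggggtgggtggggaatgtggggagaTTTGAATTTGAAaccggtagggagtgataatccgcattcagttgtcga
CCNB1 (chr5:69167050-69167169, plus strand): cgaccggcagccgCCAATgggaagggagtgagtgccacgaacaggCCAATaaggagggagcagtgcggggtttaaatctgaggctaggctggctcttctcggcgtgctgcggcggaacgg
MKI67 (chr10:128126404-128126523, minus strand): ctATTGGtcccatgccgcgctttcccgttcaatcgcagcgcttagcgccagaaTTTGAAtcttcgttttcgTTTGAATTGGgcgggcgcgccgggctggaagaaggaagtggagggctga
CDC20 (chr1:43358881-43359000, plus strand): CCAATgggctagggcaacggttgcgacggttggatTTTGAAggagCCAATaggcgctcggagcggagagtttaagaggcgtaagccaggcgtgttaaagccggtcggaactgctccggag
BUB1 (chr2:110678044-110678163, minus strand): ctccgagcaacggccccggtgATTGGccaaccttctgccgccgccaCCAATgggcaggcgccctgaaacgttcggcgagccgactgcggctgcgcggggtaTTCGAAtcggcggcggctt
CDK1 held 3 CHR matches in this stretch and HMMR 2, as did MKI67. CCNB1 held 2 CCAAT boxes and no match to the 2 strings searched for the CHR. By the response to insulin in H1047R cells, a CHR was found in 20 of 24 genes called lower (83.3%) and in 8 of 10 not called (80%), and the 1 gene called higher, BUB1, had one at its start site. A CHR match from 50 bases before to 30 bases after the start site was found in 24 of the 35 genes and in 5.38% of all genes with a window. Among genes outside the set, 42 of 68 other mitosis genes (61.8%) and 2 of 40 S phase genes (5%) held a CHR.

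**Figure D2:**
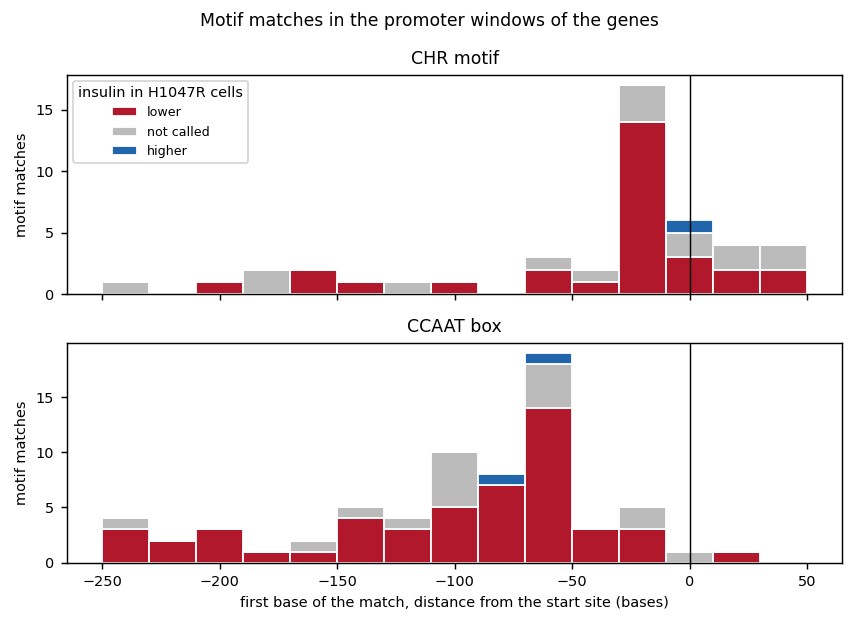
Number of CHR motif matches (top) and CCAAT box matches (bottom) by distance of their first base from the start site, in bases, over the promoter windows of the 35 genes, coloured by the call for insulin in H1047R cells. CHR matches gather around the start site, with one from 50 bases before to 30 after it in 24 of the genes, and most CCAAT boxes lie upstream.

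CDK1 and its partners were the role in which all 8 of 8 genes were called lower by insulin in H1047R cells, with a median log2 fold change of -0.30. CDK1 (chr10:60778331-60794852 in hg38), the kinase that starts mitosis, was at 385, 364 and 357 CPM with vehicle and 345, 368 and 360.0 CPM with insulin in control cells, and at 302, 323 and 325 CPM with vehicle and 245, 245 and 234 CPM with insulin in H1047R cells. Every H1047R insulin library was below every other library, and the H1047R vehicle libraries were below both groups of control cells. The insulin effect was -0.39 ± 0.0398 in H1047R cells (adjusted p = 1.11e-10) and -0.04 ± 0.0395 in control cells (adjusted p = 0.678). CKS2, a small subunit that binds CDK1, was at 222, 216 and 209.7 CPM with vehicle and 191, 226 and 238 CPM with insulin in control cells, and at 232, 200.2 and 189 CPM with vehicle and 160.0, 166 and 153 CPM with insulin in H1047R cells. Its libraries spread more than those of CDK1 in the middle 2 groups, and still none overlapped with H1047R insulin (-0.37 ± 0.0570, adjusted p = 9.72e-07). CDC25C, the phosphatase that activates CDK1, was at 69.7, 70.5 and 65.6 CPM in H1047R vehicle, against 68.0, 70.4 and 73.1 CPM in control cells given vehicle and 63.5, 67.1 and 68.1 CPM in those given insulin. In H1047R insulin it was at 56.5, 51.0 and 55.3 CPM. It decreased by 20.9% with insulin in H1047R cells (adjusted p = 3.72e-07).

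The cyclins that bind CDK1 moved the same way by different amounts. CCNB2, a B-type cyclin, was at 238, 246 and 231 CPM in H1047R vehicle and 188, 189.7 and 193 CPM in H1047R insulin, with 242, 255 and 232 CPM in control cells given vehicle and 247, 248 and 244 CPM in those given insulin. The first 3 groups overlapped and H1047R insulin lay below them (-0.32 ± 0.0393, adjusted p = 8.32e-09). CCNB1, the main mitotic cyclin, was at 520.2, 513 and 541 CPM with vehicle and 540.3, 553 and 566 CPM with insulin in control cells, and at 512, 558 and 521 CPM with vehicle and 454, 466 and 453 CPM with insulin in H1047R cells. Insulin gave -0.21 ± 0.0371 in H1047R cells (adjusted p = 1.09e-05) and 0.08 ± 0.0371 in control cells, which did not pass the test (adjusted p = 0.296). CCNA2, the cyclin of S phase and G2, was at 221, 222 and 212 CPM and 217, 225 and 223 CPM in control vehicle and control insulin, and at 193, 203 and 208 CPM and 175, 187 and 177 CPM in H1047R vehicle and H1047R insulin. Its decrease with insulin in H1047R cells (-0.17 ± 0.0399, adjusted p = 0.000922) was the least firm of the 8, and the call ended when any of control vehicle replicate 2, control insulin replicate 2, H1047R vehicle replicates 1 to 3 or H1047R insulin replicates 1 or 3 was left out (adjusted p 0.00103 to 0.0110). It was kept in 3 of 10 other settings (DESeq2, a filter of 1 CPM in 3 libraries and an FDR below 0.05) and ended in the rest, with other edgeR scaling, no filter, the replicate block, unstranded counts, only the groups compared or thinned counts (adjusted p 0.00103 to 0.00751). The remaining members, CDCA3, which triggers degradation of a CDK1 inhibitor, and CKS1B, changed by -0.28 ± 0.0476 and -0.26 ± 0.0570. CKS1B lost its call without H1047R vehicle replicate 1 or 2 or H1047R insulin replicate 3 (adjusted p 0.00129 to 0.00984), or when scaled by library totals (adjusted p = 0.00121). Per kilobase of exon, CKS2 (350.5 ± 9.70 CPM per kb) and CCNB1 (216 ± 6.09 CPM per kb) were the most abundant of all 42 genes in control vehicle.

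**Figure D3:**
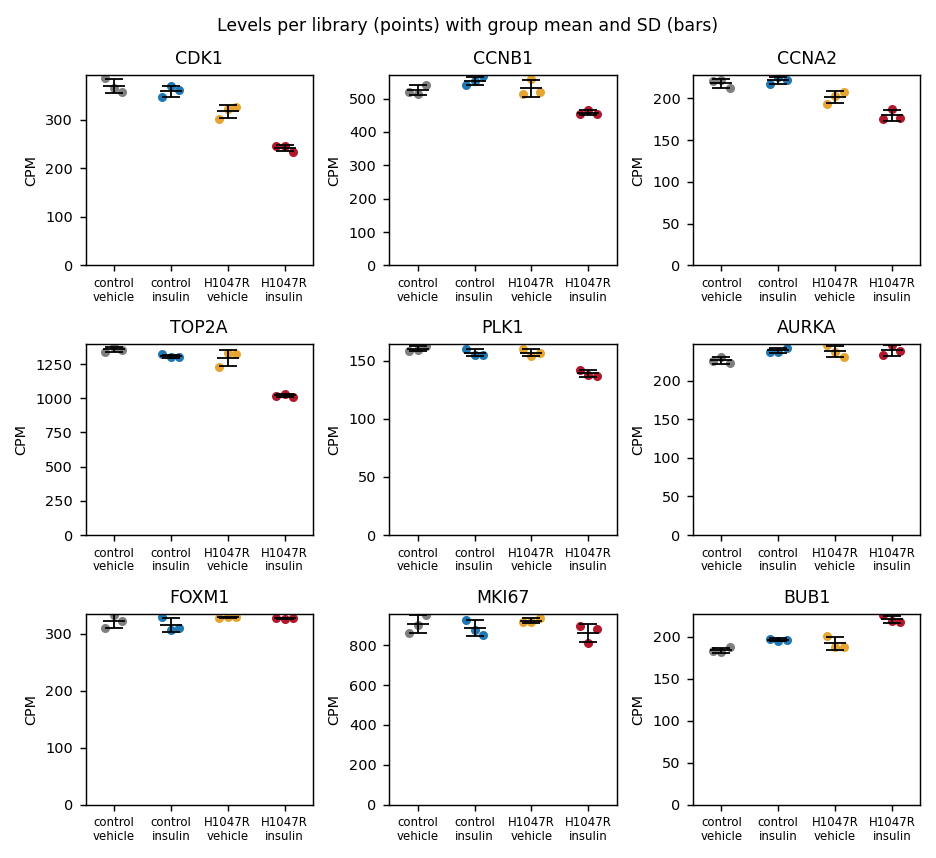
CPM per library (points) with group mean and SD (bars) for 9 of the genes in the 4 groups, 3 libraries each; vertical axes start at 0. CDK1, CCNB1, CCNA2, TOP2A and PLK1 are lowest in H1047R insulin, AURKA, FOXM1 and MKI67 stay within or close to the range of the other groups, and BUB1 is highest there.

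FOXM1, the transcription factor that switches on many of these genes in G2, was not called in any comparison. It was at 310.3, 334 and 323 CPM with vehicle and 329, 307 and 311 CPM with insulin in control cells, and at 328, 329.9 and 329 CPM with vehicle and 327, 326 and 328 CPM with insulin in H1047R cells. All 12 libraries lay within 307 to 334 CPM, and the insulin effect in H1047R cells was -0.01 ± 0.0373 (95% interval -0.08 to 0.07, adjusted p = 0.904). Its interval does not reach the decreases of CDK1, TOP2A or CCNB2. Within libraries, the ratio of CDK1 to FOXM1 counts was 1.09 to 1.24 in control vehicle, 1.05 to 1.20 in control insulin, 0.920 to 0.989 in H1047R vehicle and 0.714 to 0.750 in H1047R insulin. This pair was chosen after its values were seen and is given without a test.

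Among the mitotic kinases and the passenger complex, 2 of 5 genes were called lower with insulin in H1047R cells and 3 were not called. PLK1, the kinase that matures centrosomes and promotes mitotic entry, was at 159, 159 and 163 CPM with vehicle and 160.2, 155 and 155 CPM with insulin in control cells, and at 160.2, 154 and 157 CPM with vehicle and 142, 138 and 137 CPM with insulin in H1047R cells. H1047R insulin lay below the other groups (-0.18 ± 0.0390, adjusted p = 0.000343), and the call ended without H1047R vehicle replicates 1 or 3 or H1047R insulin replicates 2 or 3 (adjusted p 0.00137 to 0.0105), and with library totals, no filter or unstranded counts (adjusted p 0.00158 to 0.00455). CDCA8 (borealin), which targets the passenger complex to centromeres, changed by -0.17 ± 0.0402 (adjusted p = 0.00068), and its call ended without control insulin replicate 2, any H1047R vehicle replicate, or H1047R insulin replicates 2 or 3 (adjusted p 0.00110 to 0.0106). Like that of CCNA2 it was kept in 3 of 10 other settings, and it ended in the same ones (adjusted p 0.00103 to 0.00747). Like FOXM1, AURKA, the spindle pole kinase, was not called in any comparison. It was at 225, 231 and 223 CPM with vehicle and 238, 238 and 243 CPM with insulin in control cells, and at 246, 238 and 231 CPM with vehicle and 233, 246 and 239 CPM with insulin in H1047R cells. The last 3 groups overlapped, and insulin gave 0.01 ± 0.0379 in H1047R cells (95% interval -0.07 to 0.08) and 0.08 ± 0.0381 in control cells (adjusted p = 0.279). AURKB, the kinase of the passenger complex, and BIRC5 (survivin), another of its subunits, gave -0.09 ± 0.0410 (adjusted p = 0.0961) and -0.09 ± 0.0371 (adjusted p = 0.0512), which did not pass the test. The ratio of CCNB1 to AURKA counts within libraries, also chosen after its values were seen, was 2.08 to 2.43 in the first 3 groups and 1.89 to 1.95 in H1047R insulin.

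The spindle checkpoint, which delays anaphase until every chromosome is attached, held genes called in opposite directions: 2 of 5 lower, 1 higher and 2 not called with insulin in H1047R cells. BUB1 (chr2:110637528-110678063), a checkpoint kinase at kinetochores, was the one gene that rose. It was at 182, 182 and 187 CPM with vehicle and 198, 194 and 197 CPM with insulin in control cells, and at 201, 188 and 187 CPM with vehicle and 225, 218 and 218 CPM with insulin in H1047R cells. Every H1047R insulin library was above every other library (0.20 ± 0.0385, adjusted p = 4.79e-05). Without H1047R vehicle replicate 2 the change was 0.18 and missed the threshold (adjusted p = 0.00103). In control cells insulin gave 0.09 ± 0.0389 (adjusted p = 0.186), and the difference between these effects (0.11 ± 0.0547) did not pass the test (adjusted p = 0.183).

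BUB1B (BubR1), its paralog and a subunit of the complex that inhibits CDC20, moved the other way. It was at 158, 166 and 152 CPM with vehicle and 162, 156 and 162 CPM with insulin in control cells, and at 139, 163 and 160.3 CPM with vehicle and 121, 124 and 122 CPM with insulin in H1047R cells. H1047R vehicle replicate 1 was lower than the other libraries of its group, and all of them were above H1047R insulin (-0.33 ± 0.0466, adjusted p = 2.30e-07). The ratio of BUB1 to BUB1B counts was 1.10 to 1.24 in control vehicle, 1.22 to 1.24 in control insulin, 1.15 to 1.45 in H1047R vehicle and 1.76 to 1.85 in H1047R insulin, a pair likewise chosen after its values were seen. MAD2L1, which binds CDC20 when attachment is incomplete, was at 158, 149.5 and 138 CPM with vehicle and 148, 159 and 151 CPM with insulin in control cells, and at 134, 139 and 147 CPM with vehicle and 112, 119.8 and 113 CPM with insulin in H1047R cells. It decreased by 18.0% with insulin in H1047R cells (adjusted p = 2.75e-06). TTK (MPS1), the kinase at the top of the checkpoint, gave -0.16 ± 0.0469 (adjusted p = 0.00565) and BUB3, which docks BUB1 and BUB1B, -0.10 ± 0.0386 (adjusted p = 0.0421), and neither passed the test.

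At the centromere and kinetochore, 4 of 5 genes were called lower with insulin in H1047R cells. NUF2 and NDC80 are subunits of the complex that holds microtubules. NUF2 was at 87.9, 81.5 and 76.5 CPM with vehicle and 78.3, 77.9 and 79.5 CPM with insulin in control cells, and at 75.2, 78.0 and 74.7 CPM with vehicle and 59.8, 61.0 and 58.6 CPM with insulin in H1047R cells (-0.35 ± 0.0473, adjusted p = 1.17e-07). Groups other than H1047R insulin lay close together or overlapped. NDC80, its direct partner, gave -0.18 ± 0.0456 and missed the threshold (adjusted p = 0.0017). CENPE, a kinesin that carries chromosomes to the spindle equator, was at 279, 272 and 243 CPM with vehicle and 263, 277 and 260.3 CPM with insulin in control cells, and at 234, 239 and 233 CPM with vehicle and 206, 204 and 199.9 CPM with insulin in H1047R cells. CENPA, the histone variant that marks the centromere, was at 57.3, 52.5 and 58.3 CPM with vehicle and 57.9, 57.6 and 57.8 CPM with insulin in control cells, and at 50.5, 50.2 and 53.0 CPM with vehicle and 43.1, 44.8 and 42.2 CPM with insulin in H1047R cells. Both were lower in each H1047R group than in control insulin, and lowest with insulin (-0.21 and -0.24 for insulin in H1047R cells, adjusted p = 6.96e-05 and adjusted p = 0.000145). CENPE lost its call without H1047R insulin replicate 3 (adjusted p = 0.00111) and CENPA without H1047R vehicle replicate 3 or H1047R insulin replicates 1 or 3 (adjusted p 0.00112 to 0.00255). CENPF, a large kinetochore protein, gave -0.21 ± 0.0410 (adjusted p = 4.84e-05).

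Of the 8 spindle motors and microtubule proteins, 4 were called lower with insulin in H1047R cells and 4 were not called. HMMR, a spindle pole protein that binds TPX2, was at 315, 306 and 295 CPM with vehicle and 278, 296 and 288 CPM with insulin in control cells, and at 287, 284 and 282 CPM with vehicle and 228, 237 and 219.7 CPM with insulin in H1047R cells. It had the largest decrease of this role (-0.32 ± 0.0388, adjusted p = 9.95e-09), and its insulin effect in control cells, -0.09 ± 0.0387, had the smallest p among decreases there without passing the test (adjusted p = 0.217). DLGAP5, which stabilizes kinetochore microtubules, was at 294, 295 and 274 CPM with vehicle and 297, 299 and 295 CPM with insulin in control cells, and at 261, 274 and 265 CPM with vehicle and 228, 235 and 218 CPM with insulin in H1047R cells (-0.23 ± 0.0389, adjusted p = 5.19e-06). The libraries of each H1047R group lay below all control libraries for this gene. KIF4A, a chromosome-bound kinesin, and KIF11 (Eg5), which pushes the spindle poles apart, gave -0.21 ± 0.0378 and -0.16 ± 0.0361, and KIF11 lost its call when any library of H1047R cells was left out (adjusted p 0.00275 to 0.00505) and with other edgeR scaling, no filter or thinned counts (adjusted p 0.00122 to 0.00713). TPX2, the activator of AURKA, was not called, at 529 ± 11.9 CPM in H1047R vehicle and 521 ± 12.7 CPM in H1047R insulin (-0.02 ± 0.0369, 95% interval -0.10 to 0.05). KIF2C and GTSE1 gave -0.12 ± 0.0375 and -0.10 ± 0.0382 without passing the test. NUSAP1, at 0.2 to 0.8 CPM in every library, was too sparsely counted to show a difference of the size seen in the other genes.

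Among the 6 cytokinesis genes, 3 were called lower with insulin in H1047R cells. KIF20A, the kinesin that brings the passenger complex to the midzone, was at 329, 350.4 and 349 CPM with vehicle and 339.9, 342 and 342 CPM with insulin in control cells, and at 331, 358 and 365 CPM with vehicle and 272, 267 and 274 CPM with insulin in H1047R cells. The first 3 groups overlapped and H1047R insulin was well below them (-0.38 ± 0.0389, adjusted p = 1.93e-10). ANLN (anillin), the scaffold of the contractile ring, averaged 813 ± 23.7 CPM in H1047R vehicle and 667 ± 19.7 CPM in H1047R insulin (-0.29 ± 0.0348, adjusted p = 9.29e-09), and KIF23, the motor of centralspindlin, averaged 295 ± 7.24 and 249 ± 3.56 CPM (-0.24 ± 0.0369, adjusted p = 7.59e-07). KIF20B, a relative of KIF20A, was at 200.1, 207 and 213 CPM in H1047R vehicle and 203, 207 and 207 CPM in H1047R insulin, so that the groups overlapped (-0.01 ± 0.0406, 95% interval -0.09 to 0.08). In control vehicle it was at 232, 239 and 215 CPM and in control insulin at 227, 234 and 222 CPM. ECT2, the exchange factor that activates RhoA at the cleavage site, gave -0.07 ± 0.0395 (adjusted p = 0.155). PRC1, at 2.2 to 4.8 CPM, gave -0.44 ± 0.171 with the wide error of a low count and did not pass the test (adjusted p = 0.0397).

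For mitotic exit, UBE2C, the ubiquitin-conjugating enzyme of the anaphase-promoting complex, averaged 217 ± 5.79 CPM in H1047R vehicle and 184 ± 4.92 CPM in H1047R insulin (-0.24 ± 0.0428, adjusted p = 1.59e-05), whereas CDC20, its activator, gave -0.05 ± 0.0409 (adjusted p = 0.37). The chromosome proteins split in the same manner. TOP2A, the topoisomerase that untangles sister chromatids, was at 1342, 1378 and 1354 CPM with vehicle and 1321, 1299 and 1303 CPM with insulin in control cells, and at 1229, 1331 and 1324 CPM with vehicle and 1017, 1035 and 1013 CPM with insulin in H1047R cells. All H1047R insulin libraries were below all other libraries (-0.34 ± 0.0338, adjusted p = 5.86e-11). MKI67, which coats mitotic chromosomes and is the usual marker of proliferating cells, was at 862, 904 and 953 CPM with vehicle and 930.1, 879 and 854 CPM with insulin in control cells, and at 918, 919 and 938 CPM with vehicle and 898, 811 and 880.3 CPM with insulin in H1047R cells. Its H1047R insulin libraries were below H1047R vehicle but within or near the control range, and the change of -0.10 ± 0.0394 did not pass the test (adjusted p = 0.045).

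The effect of H1047R was then examined within each treatment. Without insulin, edgeR called 0 of the 42 genes, against 0.158% of all genes tested. At an unadjusted p under 0.05 there were 12 genes, all lower, but the share of all genes tested at that p was not counted. DESeq2 called 1, CDK1. CDK1 had the smallest p, with -0.22 ± 0.0397 (adjusted p = 0.00124), which is a decrease of 14.1% that missed the threshold. It was followed by CENPE (-0.17 ± 0.0421, adjusted p = 0.0302) and KIF20B (-0.15 ± 0.0409, adjusted p = 0.0617). For each of these, all libraries of H1047R vehicle were below all of control vehicle. The median of the 40 well-counted genes was -0.03.

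In the presence of insulin, H1047R lowered 26 of the 42 genes and raised BUB1, where 12% of all genes tested were called lower and 11.4% higher. At a mean of at least 100 CPM, 22 of 35 of the genes were called lower, against 34.4% of all genes at that level. This comparison shares the H1047R insulin libraries with the insulin effect in H1047R cells, so both are given side by side and not as separate evidence. CDK1 had the largest decrease (-0.57 ± 0.0397, adjusted p = 2.36e-15), equal to 32.6%. It was followed by CKS2 (-0.45 ± 0.0568), MAD2L1 (-0.41 ± 0.0459), CENPA (-0.41 ± 0.0490), CENPE (-0.39 ± 0.0418), NUF2 (-0.39 ± 0.0469), DLGAP5 (-0.39 ± 0.0388) and BUB1B (-0.38 ± 0.0463). TTK (-0.24 ± 0.0466) and ECT2 (-0.19 ± 0.0393) were called here and not for insulin in H1047R cells, and CKS1B (-0.22 ± 0.0566, adjusted p = 0.00141) was not called. FOXM1 (0.05 ± 0.0373), AURKA (0.00084 ± 0.0378), AURKB (-0.03 ± 0.0409), TPX2 (-0.002 ± 0.0368) and MKI67 (-0.04 ± 0.0394) again did not pass the test. BUB1 (0.17 ± 0.0383, adjusted p = 0.00039) lost its call when any library of control insulin or of H1047R insulin was left out (adjusted p 0.00110 to 0.00501). TTK lost it without control insulin replicate 2 or H1047R insulin replicate 3 (adjusted p 0.00116 to 0.00150), and ECT2 without H1047R insulin replicate 1 (adjusted p = 0.002) or with library totals (adjusted p = 0.00126). Of the 12 fits that left out 1 library, PLK1 kept its call in 7, CENPF in 9, CDCA3 in 10 and CDCA8 in 11. PLK1 also lost it with other edgeR scaling, no filter or only the groups compared, and CENPF and CDCA3 with library totals.

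Whether insulin acted differently in the presence of H1047R was tested as the difference of the insulin effects. Of the 42 genes, 12 had a lower insulin effect in H1047R cells, against 4.49% of all genes tested, and at a mean of at least 100 CPM 12 of 35, against 15.7%. The differences of KIF20A (-0.37 ± 0.0549, adjusted p = 1.70e-06), CDK1 (-0.35 ± 0.0561, adjusted p = 6.24e-06), CCNB2 (-0.34 ± 0.0555, adjusted p = 7.30e-06), TOP2A (-0.29 ± 0.0478, adjusted p = 1.21e-05) and CCNB1 (-0.29 ± 0.0524, adjusted p = 4.94e-05) were called in each alternative fit and with each library left out. CKS2 had the largest difference (-0.39 ± 0.0805, adjusted p = 0.000286) with a larger error, and its call was lost with DESeq2 (adjusted p = 0.0313), with a filter of 1 CPM in 3 libraries (adjusted p = 0.00146) and in 6 of 12 fits that left out 1 library. BUB1B (-0.34 ± 0.0657), MAD2L1 (-0.33 ± 0.0652), UBE2C (-0.28 ± 0.0605), DLGAP5 (-0.28 ± 0.0550), CDCA8 (-0.26 ± 0.0570) and ANLN (-0.25 ± 0.0491) were also called, and kept their calls in 3 (CDCA8) to 11 (BUB1B) of the 12 fits that left out 1 library. CDCA8 also lost its call with other edgeR scaling, no filter, the replicate block or thinned counts, and UBE2C with library totals. For 13 of the 25 genes that insulin lowered in H1047R cells, the difference from control cells did not pass the test, among them CCNA2 (-0.19 ± 0.0564, adjusted p = 0.0117), PLK1 (-0.14 ± 0.0552, adjusted p = 0.0579), CENPF (-0.16 ± 0.0580, adjusted p = 0.0365) and KIF11 (-0.17 ± 0.0510, adjusted p = 0.011). The difference for FOXM1 was 0.02 ± 0.0529 (95% interval -0.08 to 0.13). Leaving out H1047R insulin replicate 3 gave 6 called genes and leaving out H1047R vehicle replicate 2 gave 7.

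**Figure D4:**
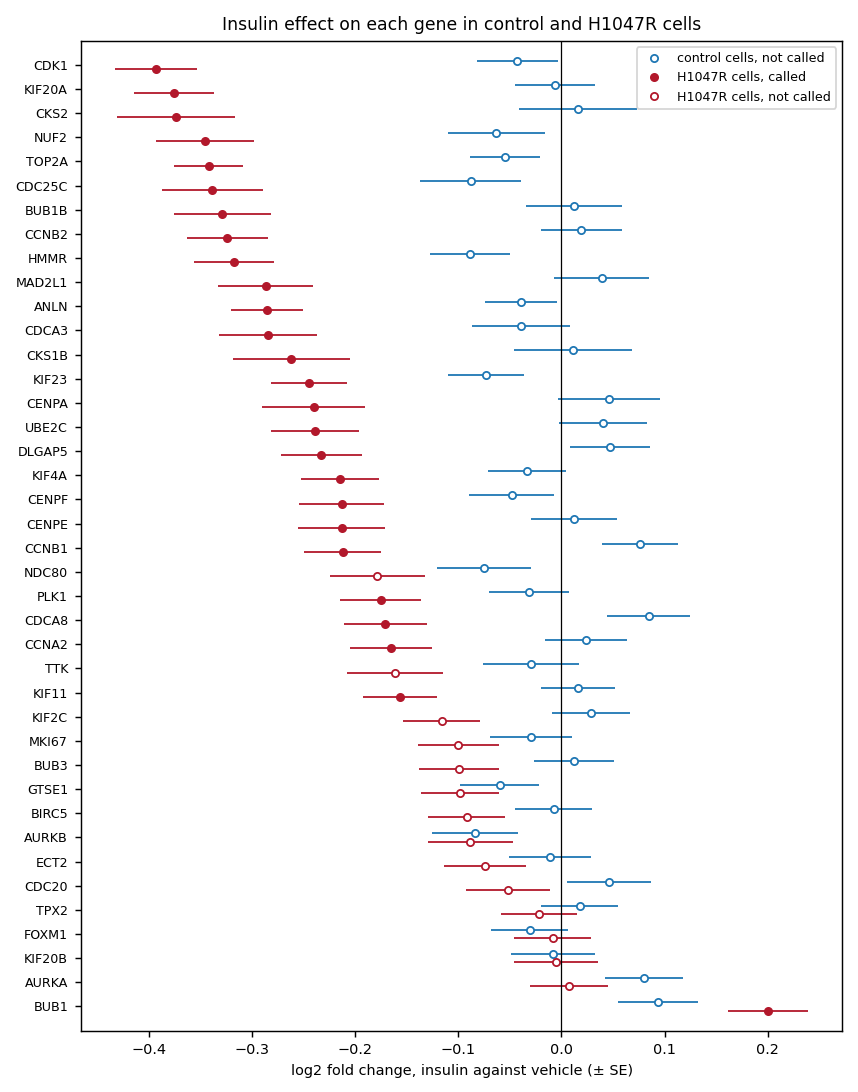
Log2 fold change of insulin against vehicle (± SE) for each of the 40 well-counted genes in control cells (blue) and in H1047R cells (red), ordered by the effect in H1047R cells; filled points are called at an FDR below 0.001. Effects in control cells lie between -0.09 and 0.09 and none is called, while those in H1047R cells reach -0.39, and BUB1 lies at 0.20.

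Genes of neighbouring processes were counted in the same fit. Their counts are read against the 9.8% of all genes tested, and 28% of those averaging at least 100 CPM, that were called lower with insulin in H1047R cells. Of 86 other mitosis genes, insulin in H1047R cells lowered 37 (43.0%) and raised 3, with a median of -0.13. HMGB2, a chromatin protein, decreased from 486 ± 22.2 to 288 ± 17.6 CPM (-0.75 ± 0.0455), and SPC24, a partner of NUF2 and NDC80, from 75.2 ± 0.396 to 53.9 ± 3.30 CPM (-0.48 ± 0.0467). PKMYT1, a kinase that inhibits CDK1, increased from 27.6 ± 2.65 to 39.0 ± 1.76 CPM (0.50 ± 0.0604). Of 18 genes of the anaphase-promoting complex, 4 were lower (22.2%) and 2 higher, with a median of -0.01, so that the share called lower was between those over all and over abundant genes. Its RING subunit ANAPC11 (-0.50 ± 0.0516) and ANAPC15 (-0.31 ± 0.0602) decreased, and UBE2D1, an E2 enzyme that can work with it, increased (0.31 ± 0.0689). Of 10 cohesin genes, 2 were lower and 1 higher. RAD21 (-0.32 ± 0.0389), which closes the ring that holds sister chromatids, and STAG2 (-0.38 ± 0.0404), which binds RAD21, were lower, and WAPL, which releases that ring, was higher (0.26 ± 0.0429).

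Of 13 genes of DREAM and MuvB, complexes that repress or activate many G2/M genes, 4 were lower (30.8%) and 2 higher with insulin in H1047R cells. TFDP2, an E2F partner, decreased (-0.62 ± 0.0509), while LIN54, the MuvB subunit that contacts the CHR, and MYBL1, a relative of B-MYB, increased (0.29 ± 0.0526 and 0.39 ± 0.0513). Of 46 S phase and replication genes, 11 were lower (23.9%) and 4 higher, with a median of -0.06. The share called lower was again between those over all and over abundant genes. Cyclin E2 (CCNE2, -0.39 ± 0.0462), which drives entry into S phase with CDK2, decreased, and the checkpoint kinase CHEK1 increased (0.39 ± 0.0448). Of 17 G1 cyclins and CDK inhibitors, 4 were higher and 4 lower (23.5%). Cyclin D1 (CCND1) rose from 167 ± 15.7 to 327 ± 4.12 CPM (0.97 ± 0.0481) and cyclin D3 (CCND3) from 52.0 ± 3.12 to 74.5 ± 1.49 CPM (0.52 ± 0.0494), while the inhibitor CDKN1B (p27) decreased (-0.51 ± 0.0453).

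In control cells, insulin changed 0 genes of the first 5 of these lists by edgeR and by DESeq2. At an unadjusted p under 0.05 there were 18 other mitosis genes, 5 of the anaphase-promoting complex, 2 of cohesin, 2 of DREAM and MuvB, and 9 of S phase. The share of all genes tested at that p was not counted, here or for H1047R without insulin. In the G1 list, the inhibitor CDKN1A (p21) rose from 149 ± 7.34 to 197 ± 9.99 CPM (0.40 ± 0.0450, adjusted p = 2.67e-08) and CDKN2B (p15) decreased (-0.25 ± 0.0490, adjusted p = 0.000526). H1047R without insulin changed 0 genes of these 6 lists by edgeR and by DESeq2, with 21, 4, 3, 2, 10 and 8 genes at an unadjusted p under 0.05 in the order given. With insulin, where 12% of all genes tested and 34.4% of those averaging at least 100 CPM were called lower, H1047R lowered 39 (45.3%) and raised 4 of the other mitosis genes, including HMGB2 (-0.63 ± 0.0454), STMN1, which destabilizes microtubules (-0.54 ± 0.0374), and SKA2 of the kinetochore (-0.53 ± 0.0421). In S phase it lowered 15 (32.6%) and raised 7, in the anaphase-promoting complex 4 (22.2%) and 1, in cohesin 4 and 0, in DREAM and MuvB 4 and 3, and in the G1 list 6 and 3. For the difference of the insulin effects, for which 4.49% of all genes tested and 15.7% of abundant ones were called lower, the calls were 10 lower (11.6%) and 1 higher among other mitosis genes and 7 lower (15.2%) and 2 higher in S phase. They were 2 lower in the anaphase-promoting complex, 2 lower in cohesin and 2 lower and 1 higher in DREAM and MuvB, where RBBP4 (-0.29 ± 0.0499) and TFDP2 (-0.61 ± 0.0715) had a lower insulin effect in H1047R cells and LIN54 a higher one (0.34 ± 0.0751). In the G1 list they were 3 lower and 2 higher, and CCND1 differed most of the called genes (1.01 ± 0.0688).

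**Figure D5:**
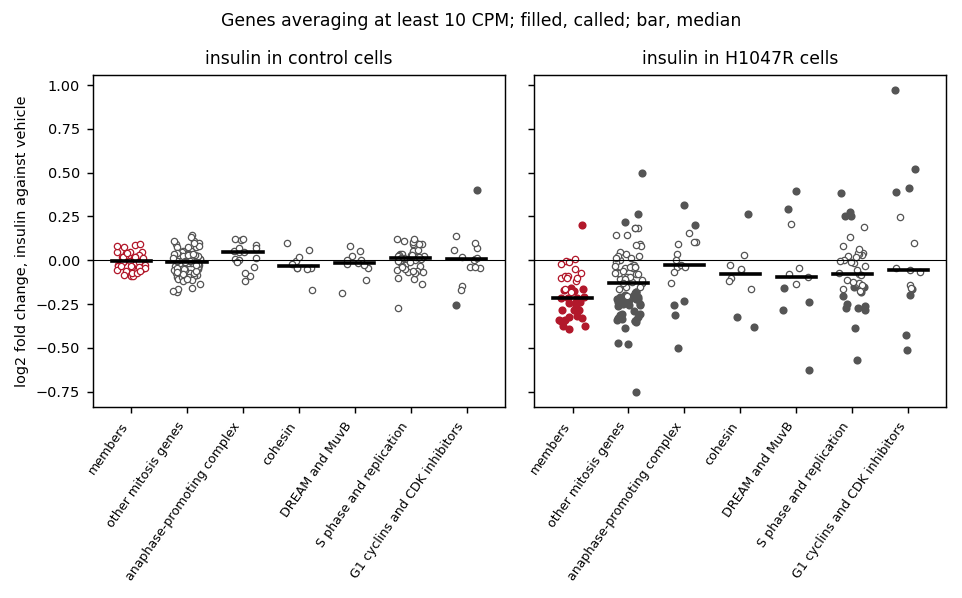
Log2 fold change of insulin against vehicle in control cells (left) and H1047R cells (right) for the genes averaging at least 10 CPM in the 42 members and in 6 lists of related genes; filled points are called at an FDR below 0.001 and bars are medians over the points. In control cells the called points are CDKN1A (0.40) and CDKN2B (-0.25), both of the G1 list, and in H1047R cells the members and the other mitosis genes lie mostly below 0 while the G1 list holds CCND1 near 1.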

How the data were processed

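Per the labels and methods, the authors used cutadapt and Trim Galore for trimming and STAR for alignment to hg38, and deposited the raw gene counts of STAR. The methods name a mouse GENCODE release for the annotation, while the deposited gene identifiers are human. For versions of these tools and the human release, the sources used here name none. Reverse-strand counts were used (93.5 to 93.7% of stranded counts). Unmapped, multiply placed, unassigned and ambiguous reads (3.12 to 4.09%, 8.48 to 15.4%, 3.91 to 4.55% and 3.31 to 3.61%) were left out.

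The edgeR quasi-likelihood test (4.0.16, R 4.3.3, TMM scaling) was run on genes with a mean of 1 count or more, with all 12 libraries in 1 fit, and calls were made at 0.001 after Benjamini-Hochberg adjustment, as strict as in the study. CPM values use TMM factors (0.987 to 1.02). Standard errors are the absolute log2 fold change over the root of F, and each adjusted p in the text is edgeR's unless DESeq2 is named. The code was tested on simulated data. Alternatives were DESeq2 1.42.0, other scaling, filters, strand, samples and thresholds, a replicate block, each library left out and, chosen after the data were seen, thinning to the smallest library.

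Genes and lists were chosen with earlier results of these data known. Values per library are given for 8 preset genes (CDK1, CCNB1, CCNA2, TOP2A, MKI67, AURKA, PLK1 and FOXM1) and, per comparison, up to 8 called genes with the largest change in each direction (without calls, the 3 smallest p). Of the other lists, up to 3 called genes with the largest change at 1 CPM or more are named (without calls, the rule takes the 2 most abundant, which are not reported here). One gene that the rule takes from these lists is not reported here. Exon lengths and overlaps came from GENCODE v44.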

Additional observations from a re-analysis of the deposited data

Results flagged for a closer look

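The insulin effect differed between H1047R cells and control cells for 12 genes, by a test of the difference itself in the edgeR fit of all genes. The differences (H1047R cells minus control cells, log2) were -0.39 for CKS2, -0.37 for KIF20A, -0.35 for CDK1, -0.34 for CCNB2, -0.34 for BUB1B, -0.33 for MAD2L1, -0.29 for CCNB1, -0.29 for TOP2A, -0.28 for UBE2C, -0.28 for DLGAP5, -0.26 for CDCA8 and -0.25 for ANLN. The calls of CCNB1, CCNB2, CDK1, KIF20A and TOP2A were kept in all alternative fits, and those of the other 7 ended in at least 1. CKS2 was not called by DESeq2 (adjusted p = 0.0313). PIK3CA also differed between the 2 groups of H1047R cells, at 312, 180.1 and 215 CPM in H1047R vehicle and 734, 714 and 715 CPM in H1047R insulin, and its part in these differences was not tested.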

How the results depend on the processing

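No gene that was called in a comparison changed direction in any alternative. The count of called genes for insulin in H1047R cells stayed between 19 (without H1047R insulin replicate 3) and 27 when 1 library was left out. It stayed between 21 and 26 in other settings at an FDR below 0.001, and was 33 at an FDR below 0.05. For H1047R in insulin it stayed between 22 and 29 when 1 library was left out. Calls kept in all fits were 18 of 26, 20 of 27 and, for the difference of the insulin effects, 5 of 12. For insulin in control cells it was 0 throughout, also at an FDR below 0.05. For H1047R in vehicle it was 1 with DESeq2, 1 without a filter and 1 with unstranded counts, 2 at an FDR below 0.05, and 0 to 1 when 1 library was left out (1 without control insulin replicate 1 and 1 without H1047R vehicle replicate 3), and the gene was CDK1 in each case, joined at an FDR below 0.05 by CENPE. For the difference of the insulin effects it was 25 at an FDR below 0.05 and 6 to 13 when 1 library was left out, with 6 without H1047R insulin replicate 3 and 7 without H1047R vehicle replicate 2. Thinning all libraries to the smallest, which removes the difference in depth, left 24, 28 and 12 called genes for insulin in H1047R cells, H1047R in insulin and the difference.

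With the replicate number as a block, insulin gave 0 calls in control cells and 24 in H1047R cells, the H1047R plasmid gave 0 with vehicle and 27 with insulin, and the difference of the insulin effects gave 11. The numbers do not pair the samples by this check: deviations from group means correlated at -0.058 to 0.0873 between libraries of the same number and at -0.0862 to 0.0884 between different numbers. The libraries do not resolve NUSAP1 and PRC1, and the smallest decrease called for insulin in H1047R cells was 10.3%.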
